A study of Rattus norvegicus with 24 samples.

Results

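The TGF-beta superfamily was examined as 58 of the 19962 gene targets that were measured in skin wounds of diabetic rats. Members were taken by symbol: the TGF-beta, bone morphogenetic protein (BMP), growth and differentiation factor (GDF) and activin ligands, the latent TGF-beta binding proteins, the receptors, the Smads, 7 secreted antagonists and the TGF-beta induced matrix protein gene Tgfbi. The BMP-named protease gene Bmp1 was left out. The rats were male Sprague-Dawley (SD) animals given streptozotocin (STZ), which destroys insulin-producing cells, at 5 weeks of age, so the Sham animals were diabetic too. Each wound was a splinted 8 mm defect through the full skin, in a group named Sham, Gel or CuNZ@Gel, and all were taken at day 7. The labels speak of hydrogel treatment without saying what Sham wounds received or what CuNZ@Gel contains. The assay was GeoMx spatial profiling of fixed sections, in which tags released by light from chosen areas are sequenced. The 24 areas came from 2 numbered specimens of each of the 3 treatments, and every specimen gave 4 areas: Segment 1 and Segment 2 in each of 2 regions. The labels name neither the fluorescent markers that set the segments nor the animal behind a specimen. The p-values therefore refer only to these specimens, not to animals, and the spread they use came mostly from other targets, as given below.

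TGF-beta ligands are secreted in a latent form that latent TGF-beta binding proteins anchor in the matrix, and integrins or proteases release them. Active ligands assemble type I and type II receptor kinases; TGF-beta and activins then signal through Smad2 and Smad3, BMPs through Smad1, Smad5 and Smad9, both with the shared partner Smad4, while Smad6 and Smad7 inhibit. In healing skin the family is known for driving matrix production and contractile myofibroblasts, and antagonists such as noggin and follistatin trap its ligands outside the cell.

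Values were scaled signals whose 75th percentile lay between 12.1 and 12.3 in every area. Probes differ in affinity, so levels are not compared between genes. Recovered totals ran from 86385 to 1476500 counts per area (median 340370), with a median of 533134 in Segment 1 and 170040 in Segment 2. For background, 1116 targets for smell and pheromone receptors were taken, and their 99th percentile within an area was its limit, which lay between 11.4 and 21.6. A member was called above background when it passed that limit in at least 4 areas. That held for 22 of the 58 members (37.93%), against 27.82% of all targets. Tgfb1, Tgfbr1, Smad1, Acvr1b, Bmpr2 and Fstl1 passed it in all 24 areas, and 27 members passed it in no area.

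**Figure D1:**
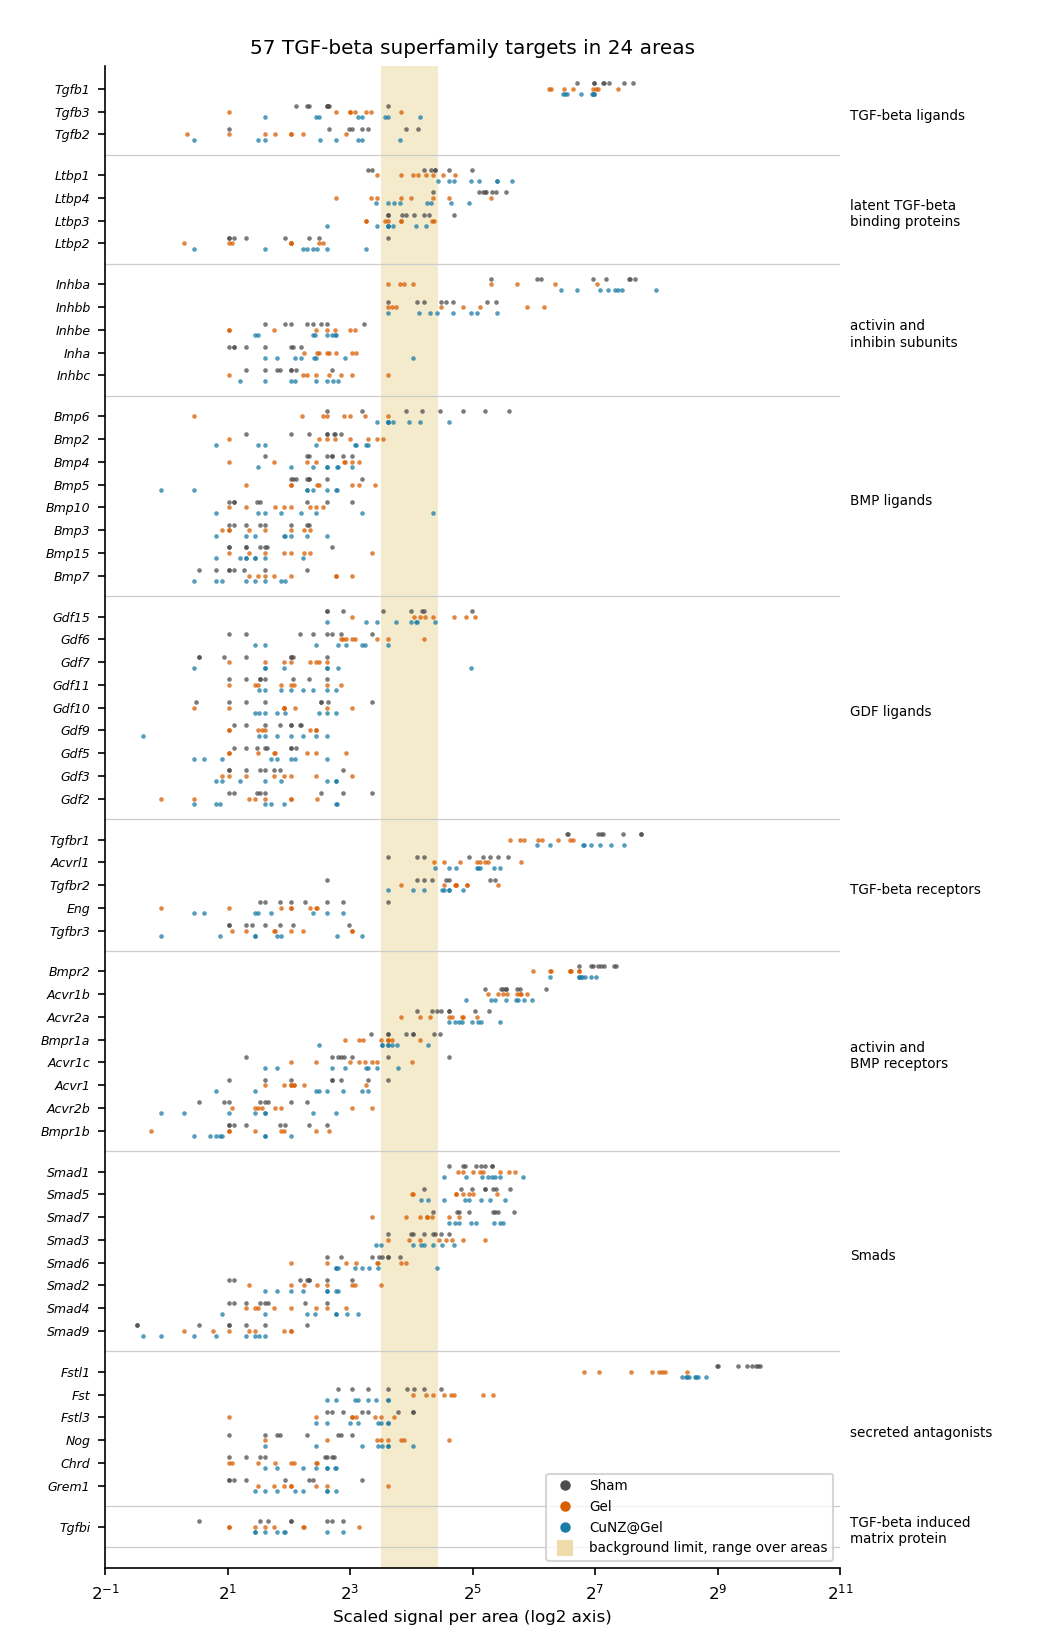
Scaled signal (log2 axis) of the members shown in each of the 24 areas, coloured by treatment and grouped by role; the band is the range of the background limit over areas, 11.4 to 21.6. Most BMP and GDF ligands lie left of the band, while Fstl1, Tgfb1, Tgfbr1, Bmpr2 and most Inhba points lie right of it.

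Summed signals of several cell type marker lists differed between treatments and stand beside every treatment result below. The sum of 10 fibroblast markers had a median of 14390 in Sham areas (10700 to 32366), 5925 in Gel (1956 to 11431) and 11028 in CuNZ@Gel (7285 to 12567). Of these markers 7 were above background, and Dcn, Dpt and Pi16 were not. Only Fap and Lum were called between treatments, both lower in Gel than in Sham and lower in CuNZ@Gel than in Sham. Most of the sum was 1 collagen gene, Col3a1, with 10170 and 12709 in the Sham specimens, 2316 and 6618 in Gel and 7441 and 8202 in CuNZ@Gel. The sum of 10 smooth muscle and pericyte markers had medians of 961, 266 and 671 in the same order, with ranges of 668 to 1234, 144 to 654 and 390 to 948. Of these 5 were above background, and Myh11, Cnn1, Des, Pdgfrb and Notch3 were not. In Gel against Sham Tagln was called lower and Mcam higher, and Acta2, which held much of the sum in Sham, was not called. The Gel specimens stood apart in the fibroblast sum, with a median of 3992 (1956 to 5551) in specimen 1 and 9555 (6300 to 11431) in specimen 2, and in the muscle sum the medians were 199.6 and 456. Member calls were lost without Gel specimen 1, in which both sums were lower. The loss was not particular to that specimen. Calls were also lost without Sham specimen 1 or 2, Gel specimen 2, or CuNZ@Gel specimen 1 or 2, as given for each gene below. The sum of 6 adipocyte markers, of which only Fabp4 was above background, had medians of 78.1 in Sham (52.1 to 119), 237 in Gel (61.3 to 759) and 144 in CuNZ@Gel (77.1 to 241). That of 10 endothelial markers, with only Plvap above background, had medians of 72.1, 114 and 97.9. Red cell markers ran from 597 to 1804 in Sham areas, against 20.4 to 85.8 in Gel and 21.0 to 203 in CuNZ@Gel. The 10 macrophage markers, of which Adgre1, Cd14, Cd163 and Aif1 were not above background, had overlapping sums, with medians of 926, 829 and 848. Single macrophage markers were called all the same. Mrc1 and Lyz2 were called between CuNZ@Gel and Sham, 1 higher and 1 lower, and Mrc1 was lower in CuNZ@Gel than in Gel. None of 10 keratinocyte markers was above background. The part of these cell types in the results was not tested, and fewer cells of a type cannot be told apart from less RNA per cell.

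Between Gel and Sham 8 of the 58 members passed an adjusted p of 0.05 in limma, where 2.42% of all 19728 targets tested did and 7.85% of the 5554 targets above background. Nog and Fst were higher in Gel (0.618% of all targets were called higher), and Smad7, Tgfbr1, Ltbp4, Bmp6, Tgfb2 and Fstl1 were lower (1.8%). Between CuNZ@Gel and Sham 4 members were called, against 1.31% of all targets and 4.34% of those above background. Ltbp1 was among those higher (0.324% of all targets), and Ltbp4 and Fstl1 were lower (0.988%). Between CuNZ@Gel and Gel 6 were called, against 0.943% of all targets and 3.24% of those above background. Smad7, Tgfbr1, Ltbp1, Bmp6 and Fstl1 were higher in CuNZ@Gel (0.623% of all targets) and Fst was lower (0.319%). The last comparison shares its Gel specimens with the first, in which Bmp6, Fst, Fstl1, Smad7 and Tgfbr1 were called in the opposite direction. The median log2 change of the 58 members was 0.04, -0.01 and 0.02 in the 3 comparisons, against 0.06, 0.04 and -0.02 over all targets. The tests rest on 2 specimens per treatment, so limma took the spread mostly from other targets (133 prior against 3 residual degrees of freedom).

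**Figure D2:**
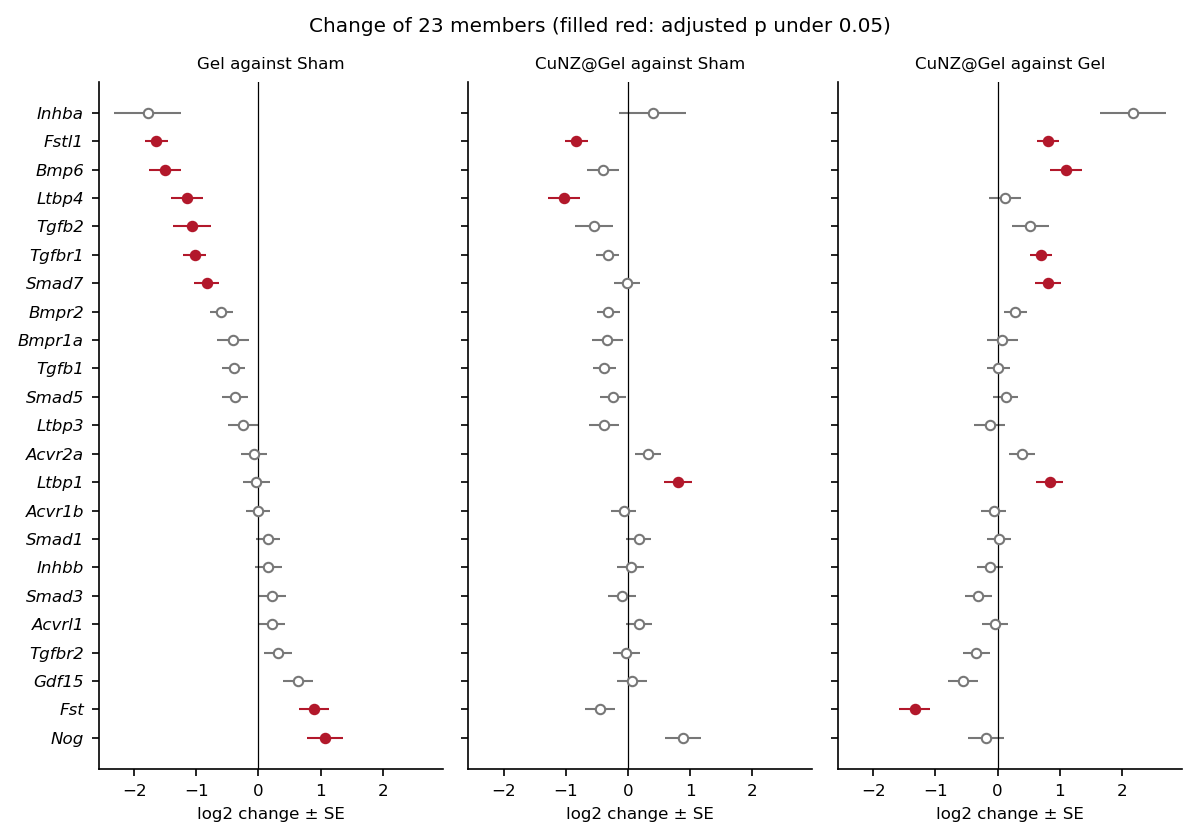
log2 change with its standard error (SE) for the members shown that were above background and for Nog and Tgfb2, which were called without being above background, in the 3 treatment comparisons; filled red points passed an adjusted p of 0.05. Fstl1 (-1.64), Bmp6 (-1.50) and Tgfbr1 (-1.03) lie left of 0 between Gel and Sham and right of 0 between CuNZ@Gel and Gel.

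Of the 3 TGF-beta ligand genes Tgfb1 was the one above background. Its specimens stood at 165 and 124 in Sham, 90.5 and 130 in Gel and 107 and 112 in CuNZ@Gel. The Gel specimens straddled the CuNZ@Gel ones, and no treatment comparison was called (log2 change -0.39 for Gel against Sham, limma adjusted p = 0.354, and -0.38 for CuNZ@Gel against Sham, adjusted p = 0.438). Tgfb2 fell from 12.4 and 5.53 in Sham to 3.13 and 3.83 in Gel (log2 change -1.07, SE 0.30, limma adjusted p = 0.0269), with 6.97 and 4.18 in CuNZ@Gel. It passed the background limit in 3 areas, so this call lies among values near background. It was lost without Sham specimen 1 (log2 change -0.55, adjusted p = 0.841) and without Gel specimen 1 (-0.96, adjusted p = 0.184). Tgfb3 ran from 5.07 to 8.66 over the 6 specimens, passed the limit in 1 area and was not called. Tgfbi, a matrix gene known to be induced by TGF-beta, passed it in none.

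Ltbp1, which links latent TGF-beta to the matrix, stood at 20.1 and 16.8 in Sham, 17.6 and 18.1 in Gel and 27.6 and 39.0 in CuNZ@Gel. Both CuNZ@Gel specimens lay above the other 4, though areas overlapped. Ltbp1 rose by a log2 change of 0.80 (SE 0.22, limma adjusted p = 0.0336) against Sham and 0.84 (SE 0.22, adjusted p = 0.0230) against Gel. Without CuNZ@Gel specimen 2 neither call held (0.56, adjusted p = 0.632, and 0.60, adjusted p = 0.880). The call against Sham was also lost without either Sham specimen (adjusted p = 0.112 and 0.290), and the one against Gel without either Gel specimen (adjusted p = 0.113 and 0.0623). Ltbp4, a matrix protein of elastic fibres, stood at 37.9 and 33.9 in Sham, 10.5 and 23.1 in Gel and 21.6 and 13.5 in CuNZ@Gel. Both Sham specimens were above all others, and Ltbp4 fell by 1.15 on the log2 scale in Gel (SE 0.26, adjusted p = 0.00626) and by 1.02 in CuNZ@Gel (SE 0.26, adjusted p = 0.0332). Its own SD between specimens was 0.51, against the 0.26 that the test used. The Gel call was lost without Sham specimen 1 (-1.07, adjusted p = 0.0878) or Gel specimen 1 (-0.61, adjusted p = 0.347). The CuNZ@Gel call was lost without Sham specimen 1 (-0.95, adjusted p = 0.361), Sham specimen 2 (-1.10, adjusted p = 0.0558) or CuNZ@Gel specimen 2 (-0.70, adjusted p = 0.474). With the specimen number as a block, which the labels do not state to link treatments, the CuNZ@Gel call was lost as well. Ltbp3 ran from 11.8 to 17.4 over specimens and was not called, and Ltbp2 was at background in every area.

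Inhba, the activin A subunit gene that wounds are known to induce, had an SD of 0.59 between specimens on the log2 scale. The specimens stood at 180 and 68.9 in Sham, 27.6 and 36.3 in Gel and 133 and 162 in CuNZ@Gel. Both Gel specimens lay below the other 4. The log2 changes were -1.78 (SE 0.53, limma adjusted p = 0.338) for Gel against Sham, 0.39 (adjusted p = 0.874) for CuNZ@Gel against Sham and 2.18 (SE 0.53, adjusted p = 0.511) for CuNZ@Gel against Gel, and none was called. limma's robust step used an SD of 0.53 for this gene. Of 23 alternative settings, 9 called it lower in Gel than in Sham and 10 called it higher in CuNZ@Gel than in Gel. Inhbb, the activin B subunit gene, ran from 21.6 to 31.5 over specimens and was not called between treatments. Inha, Inhbc and Inhbe were at background in every area. Among those low values, and singled out after they were seen, every Gel area of Inha, the inhibin alpha subunit gene (lowest 4.77), lay above every Sham area (highest 4.57), with a log2 change of 0.89 that was not called (limma adjusted p = 0.0995).

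Of the 8 BMP ligand genes only Bmp6, an iron-responsive BMP, passed the filter on background. Its specimens stood at 18.1 and 20.5 in Sham, 5.17 and 7.32 in Gel and 15.5 and 13.3 in CuNZ@Gel, so Gel lay below both other treatments. The gene passed the limit in 6 of 8 Sham areas, 0 of 8 Gel areas and 2 of 8 CuNZ@Gel areas. It fell in Gel against Sham (log2 change -1.50, SE 0.25, limma adjusted p = 5.16e-06), and no omission of a specimen ended that call. It was higher by 1.10 in CuNZ@Gel than in Gel (SE 0.25, adjusted p = 0.00494), a call that lies among values near background, since 2 of these 16 areas passed the limit. That call was lost without Gel specimen 1 (0.88, adjusted p = 0.136) or CuNZ@Gel specimen 1 (0.99, adjusted p = 0.217). The other 7 BMP genes, Bmp2 and Bmp4 among them, were at background in every area. Of the 9 GDF genes only Gdf15, a stress-induced cytokine, was above background. It stood at 12.9 and 12.1 in Sham, 25.9 and 15.1 in Gel and 13.3 and 13.0 in CuNZ@Gel, and was not called (log2 change 0.63 for Gel against Sham, adjusted p = 0.203).

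Among the receptors only Tgfbr1, the type I kinase of TGF-beta, was called between treatments. Its specimens stood at 147 and 141 in Sham, 67.5 and 72.6 in Gel and 126 and 103 in CuNZ@Gel. The specimens of the 3 treatments did not overlap, while areas did: Sham ran from 93.2 to 216, Gel from 49.1 to 99.5 and CuNZ@Gel from 66.8 to 177. Tgfbr1 fell by 1.03 on the log2 scale in Gel against Sham (SE 0.18, limma adjusted p = 1.83e-05). This call and that of Fstl1 were the only member calls to hold under all 23 alternatives. It was higher by 0.70 in CuNZ@Gel than in Gel (SE 0.18, adjusted p = 0.0249), a call lost without Gel specimen 1 (0.65, adjusted p = 0.0856), CuNZ@Gel specimen 1 (0.56, adjusted p = 0.712) or CuNZ@Gel specimen 2 (0.84, adjusted p = 0.170). Against Sham CuNZ@Gel was not called (-0.33, adjusted p = 0.537).

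Tgfbr2, the type II receptor that recruits Tgfbr1, was not called. It stood at 15.3 and 29.0 in Sham, 28.2 and 24.9 in Gel and 19.0 and 22.6 in CuNZ@Gel, with the widest gap between the Sham specimens. Its log2 changes were 0.31 for Gel against Sham (limma adjusted p = 0.623) and -0.34 for CuNZ@Gel against Gel (adjusted p = 0.901). Bmpr2, the BMP type II receptor, stood at 130 and 141 in Sham, 93.9 and 84.0 in Gel and 103 and 114 in CuNZ@Gel. The Sham areas (lowest 107.3) lay above the Gel areas (highest 106.6), and the log2 change of -0.60 (SE 0.18) missed the threshold with an adjusted p of 0.0522. Of 23 alternatives, 5 called it. The activin type I receptor gene Acvr1b ran from 41.6 to 55.4 over specimens, the activin type II receptor gene Acvr2a from 20.7 to 34.9, the endothelial type I receptor gene Acvrl1 from 24.2 to 40.2 and the BMP type I receptor gene Bmpr1a from 10.3 to 16.2, and none was called. The co-receptor genes Eng and Tgfbr3 were at background in every area.

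Smad7, which marks activated TGF-beta type I receptors for degradation and is itself a known TGF-beta response gene, was the one Smad called. Its specimens stood at 37.3 and 30.7 in Sham, 17.7 and 19.4 in Gel and 32.0 and 34.6 in CuNZ@Gel. Both Gel specimens were lowest, and the other treatments overlapped. Smad7 fell by 0.84 on the log2 scale in Gel against Sham (SE 0.21, limma adjusted p = 0.00708), was higher by 0.81 in CuNZ@Gel than in Gel (SE 0.21, adjusted p = 0.0192), and differed by -0.02 between CuNZ@Gel and Sham (adjusted p = 0.983). The first call was lost without Sham specimen 1 (-0.70, adjusted p = 0.272) or Gel specimen 1 (-0.77, adjusted p = 0.0895). The second was lost without Gel specimen 1 (0.75, adjusted p = 0.151), CuNZ@Gel specimen 1 (0.87, adjusted p = 0.164) or CuNZ@Gel specimen 2 (0.76, adjusted p = 0.411). No signal-carrying Smad was called. Smad3, which carries the TGF-beta and activin signal, stood at 17.2 and 19.9 in Sham, 19.4 and 24.1 in Gel and 18.7 and 15.99 in CuNZ@Gel, and its log2 change of 0.21 in Gel against Sham had an adjusted p of 0.784. Smad2 (4.33 to 7.86 over specimens) and Smad4 (2.62 to 5.73) were at background in every area, so their values lie among background ones. The BMP Smads Smad1 (32.1 to 39.3 over specimens) and Smad5 (21.1 to 35.5 over specimens) were not called.

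Secreted antagonists were called in both directions. Fstl1, a secreted follistatin-like glycoprotein, stood at 754 and 625 in Sham, 168 and 286 in Gel and 401 and 370 in CuNZ@Gel. Every Sham area (lowest 509.8) lay above every Gel area (highest 363.7) and every CuNZ@Gel area (highest 451). Fstl1 fell by 1.64 on the log2 scale in Gel (SE 0.18, limma adjusted p = 3.57e-12) and by 0.83 in CuNZ@Gel (SE 0.18, adjusted p = 0.00302), and was higher by 0.81 in CuNZ@Gel than in Gel (SE 0.18, adjusted p = 0.00390). Its own SD was 0.33 against the 0.18 used. The fall in CuNZ@Gel was lost without Sham specimen 1 (-0.70, adjusted p = 0.352), CuNZ@Gel specimen 1 (-0.89, adjusted p = 0.159) or CuNZ@Gel specimen 2 (-0.77, adjusted p = 0.304). The difference between the gels was lost without Gel specimen 1 (0.43, adjusted p = 0.313), CuNZ@Gel specimen 1 (0.75, adjusted p = 0.395) or CuNZ@Gel specimen 2 (0.87, adjusted p = 0.220).

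Fst, which encodes follistatin, the trap for activins, was highest in Gel. It stood at 13.2 and 12.5 in Sham, 30.5 and 19.97 in Gel and 8.996 and 9.36 in CuNZ@Gel. It passed the background limit in 3 Sham areas, 8 Gel areas and 0 CuNZ@Gel areas, and all Gel areas (lowest 16.4) lay above all CuNZ@Gel areas (highest 12.3). Fst was lower in CuNZ@Gel than in Gel (log2 change -1.34, SE 0.24, limma adjusted p = 5.69e-05), and no omission of a specimen ended that call. It rose by 0.89 on the log2 scale in Gel against Sham (SE 0.24, adjusted p = 0.0196). The rise was lost without Sham specimen 1 (0.93, adjusted p = 0.0933), Sham specimen 2 (0.85, adjusted p = 0.128) or Gel specimen 1 (0.60, adjusted p = 0.511).

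Nog, which encodes the BMP trap noggin, stood at 4.49 and 4.63 in Sham, 14.9 and 7.62 in Gel and 8.48 and 10.1 in CuNZ@Gel. Both Sham specimens were lowest. Nog rose by 1.07 on the log2 scale in Gel against Sham (SE 0.29, limma adjusted p = 0.0152), but it passed the background limit in 3 of 24 areas. The call was lost without Sham specimen 1 (1.06, adjusted p = 0.102), Sham specimen 2 (1.09, adjusted p = 0.0615) or Gel specimen 1 (0.63, adjusted p = 0.572). Chrd and Fstl3 were not above background and not called.

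**Figure D3:**
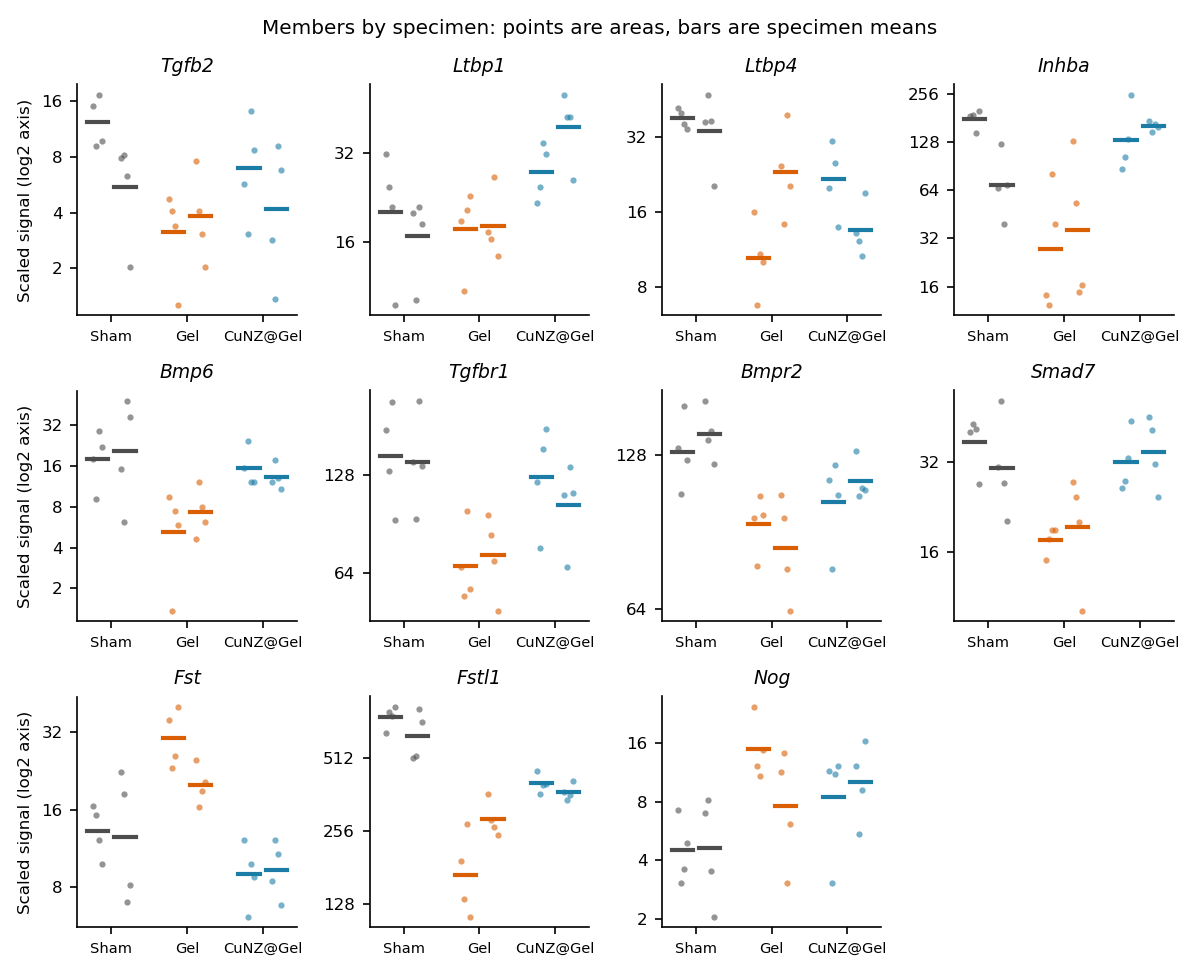
Scaled signal (log2 axis) of 9 members called between treatments and of Inhba and Bmpr2; points are the 4 areas of a specimen and bars the specimen means, 2 specimens per treatment. Gel bars are lowest for Tgfbr1, Bmp6, Smad7, Fstl1 and Inhba and highest for Fst, and the 2 Sham bars of Inhba lie apart at 180 and 68.9.

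Of the remaining members, 34 were neither called nor above background. Their counts were low: Smad4 had a median of 4 counts per area, Smad2 of 5.5 and Bmp2 of 7, against 107.5 for Tgfbr1 and 344 for Fstl1.

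The stretch of 250 bases before the annotated gene start is shown for 3 members: Fstl1 and Tgfbr1, whose fall in Gel held under all alternatives, and Ltbp1, which was higher in CuNZ@Gel. Sequences are from RefSeq, rat build GRCr8, 5′ to 3′ on the gene's strand. Capitals mark CAGAC, a Smad3 and Smad4 binding motif, or GGCGCC, a GC-rich Smad motif, each searched on both strands. Fstl1 lies at chr11:76454054-76454303 on the minus strand, Tgfbr1 at chr5:66449148-66449397 on the plus strand and Ltbp1 at chr6:26177302-26177551 on the minus strand.
Fstl1: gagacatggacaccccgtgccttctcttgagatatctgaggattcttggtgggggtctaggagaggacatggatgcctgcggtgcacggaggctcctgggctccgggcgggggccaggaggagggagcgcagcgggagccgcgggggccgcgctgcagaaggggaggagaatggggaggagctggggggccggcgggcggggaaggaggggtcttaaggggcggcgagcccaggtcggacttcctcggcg
Tgfbr1: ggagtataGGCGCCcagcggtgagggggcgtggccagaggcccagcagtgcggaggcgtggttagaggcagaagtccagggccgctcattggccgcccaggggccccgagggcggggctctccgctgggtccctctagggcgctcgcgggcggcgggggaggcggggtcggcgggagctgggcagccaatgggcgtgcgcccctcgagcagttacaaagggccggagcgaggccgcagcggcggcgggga
Ltbp1: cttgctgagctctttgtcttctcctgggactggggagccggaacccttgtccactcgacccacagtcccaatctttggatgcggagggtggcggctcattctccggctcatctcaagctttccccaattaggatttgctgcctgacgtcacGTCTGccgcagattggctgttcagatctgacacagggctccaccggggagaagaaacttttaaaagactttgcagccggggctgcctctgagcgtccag
The Tgfbr1 window holds GGCGCC once, beginning 242 bases before the gene start, and no CAGAC. The Ltbp1 window holds CAGAC once, on the opposite strand and beginning 99 bases before the start, and no GGCGCC. The Fstl1 window holds neither. CAGAC occurred in 42.9% and GGCGCC in 8.70% of the 33469 promoter windows of this length. Of the 58 members 47 had an entry (49 windows), and 14 and 13 windows held the motifs. A match of these letters is a description and shows no binding.

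Genes downstream of TGF-beta were examined as a list of 16 response genes, none of which is a member. Of these 13 were above background. Between Gel and Sham 3 were called, all lower, where 2.42% of all targets and 7.85% of those above background were called. The list's median log2 change was -0.99, against 0.06 over all targets and -0.15 over those above background. Tagln, an actin-binding gene of contractile cells, stood at 66.4 and 72.8 in Sham, 5.38 and 11.1 in Gel and 48.1 and 41.8 in CuNZ@Gel. The fibronectin gene Fn1 stood at 1248 and 1146, 325 and 506, and 1057 and 1058 in the same order. Pmepa1, a known feedback inhibitor of TGF-beta signalling, stood at 97.0 and 97.6, 34.7 and 32.9, and 60.4 and 83.9. In each of these genes both Gel specimens lay below the other 4. The log2 changes in Gel against Sham were -3.01 for Tagln, -1.56 for Fn1 and -1.50 for Pmepa1, and each call held under all 23 alternatives. Between CuNZ@Gel and Gel 5 of the 16 were called, all higher, where 0.943% of all targets and 3.24% of those above background were called. The list's median was 1.02, against -0.02 over all targets and -0.003 over those above background. The 5 are named next. They were Tagln, Fn1, Pmepa1, the collagen-crosslinking enzyme gene Lox and the matricellular gene Ccn2, which stood at 16.1 and 28.4 in CuNZ@Gel against 7.62 and 4.31 in Gel. Between CuNZ@Gel and Sham, where 1.31% of all targets and 4.34% of those above background were called, Ccn2 alone was called, higher. The list's median was -0.10, against 0.04 over all targets and -0.15 over those above background. The Ccn2 call was lost without Sham specimen 1 (log2 change 1.03) or CuNZ@Gel specimen 2 (0.86). Without CuNZ@Gel specimen 2 the Pmepa1 and Lox differences between the gels were lost too (adjusted p = 0.204 and 0.340), and Lox was also lost without CuNZ@Gel specimen 1 (adjusted p = 0.148). Of the 16 genes 6 also stand in the fibroblast or smooth muscle marker lists given above, so the list and those marker sums are not separate observations. Of those 6 Tagln alone was called in Gel against Sham.

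**Figure D4:**
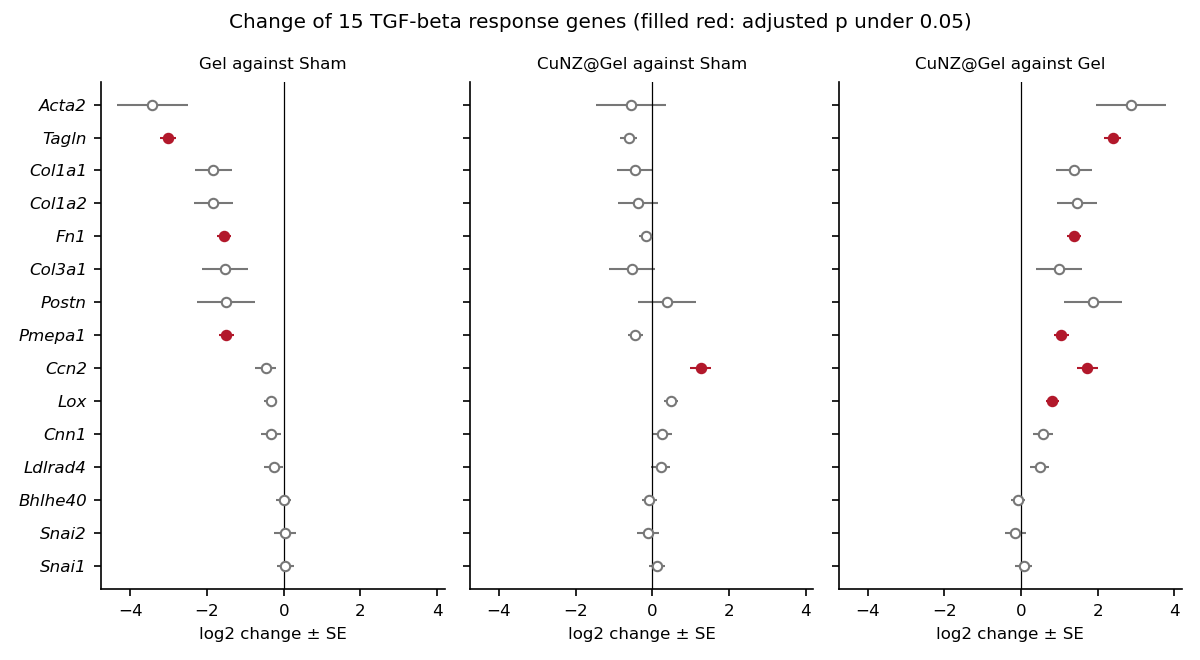
log2 change with SE for 15 TGF-beta response genes in the 3 treatment comparisons; filled red points passed an adjusted p of 0.05. Tagln, Fn1 and Pmepa1 are called left of 0 between Gel and Sham and right of 0 between CuNZ@Gel and Gel.

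Of 11 BMP response genes Runx2, an osteoblast transcription factor gene, was called lower in Gel than in Sham (log2 change -1.10, limma adjusted p = 4.24e-04). DESeq2, thinned counts and Segment 1 areas alone lost that call. Runx2 was called higher in CuNZ@Gel than in Gel (1.17). The second call was lost with DESeq2, without limma's trend and robust steps, and without CuNZ@Gel specimen 2 (0.91). Id1, the classical BMP-induced gene, stood at 49.98 and 56.3 in Sham, 45.2 and 78.1 in Gel and 32.7 and 31.9 in CuNZ@Gel. It was called lower in CuNZ@Gel than in Sham and Gel, and 17 and 10 of 23 alternatives lost these calls. The first was lost without Sham specimen 1 (-0.78, limma adjusted p = 0.229), Sham specimen 2 (-0.61, adjusted p = 0.318), CuNZ@Gel specimen 1 (-0.71, adjusted p = 0.386) or CuNZ@Gel specimen 2 (-0.68, adjusted p = 0.387). The second was lost without Gel specimen 2 (-0.47, adjusted p = 0.531), CuNZ@Gel specimen 1 (-0.88, adjusted p = 0.143) or CuNZ@Gel specimen 2 (-0.84, adjusted p = 0.204). Of 16 genes of latency and activation 4 were called between Gel and Sham, where 2.42% of all targets were. They were the matrix protease genes Mmp14 (-1.02) and Mmp2 (-1.04), and the integrin genes Itgb5 (-0.72) and Itgb8 (1.12). Mmp14 was lost under 3 of 23 alternatives, edgeR and DESeq2 among them, and Mmp2 under 4, edgeR among them. Itgb5 was lost without any 1 of 5 specimens, Gel specimen 1 among them (-0.43, adjusted p = 0.632), and Itgb8 without Sham specimen 2 (0.86, adjusted p = 0.294) or Gel specimen 1 (0.58, adjusted p = 0.651). Of 20 extracellular modulators 1 was called higher in Gel than in Sham, the BMP antagonist gene Nbl1 (0.93). It was lost without Sham specimen 1 (0.60, adjusted p = 0.424) or Gel specimen 2 (0.72, adjusted p = 0.0737). Of 18 intracellular regulators 1 was called lower, the Smad co-repressor gene Ski (-0.92). The Ski call was lost with edgeR, with DESeq2 and without limma's trend and robust steps. Between CuNZ@Gel and Sham, where 1.31% of all targets were called, the lists held 4 further calls, all lower. They were Mmp2 (-0.71, lost without any 1 Sham or CuNZ@Gel specimen, adjusted p = 0.0582 to 0.556), the integrin gene Itgb3 (-1.03, lost without Sham specimen 1, Sham specimen 2 or CuNZ@Gel specimen 1, adjusted p = 0.351, 0.0591 and 0.638), the endocytic adaptor gene Dab2 (-1.15, lost without Sham specimen 1, adjusted p = 0.0893) and Fkbp1a, whose product binds type I receptors (-1.07, lost without Sham specimen 1 or CuNZ@Gel specimen 1, adjusted p = 0.530 and 0.411). Between CuNZ@Gel and Gel, where 0.943% were called, the BMP-binding Bmper was higher (1.21, lost without CuNZ@Gel specimen 1 or 2, adjusted p = 0.0563 and 0.0582) and Nbl1 lower (-0.75, lost without Gel specimen 2, CuNZ@Gel specimen 1 or CuNZ@Gel specimen 2, adjusted p = 0.454, 0.0932 and 0.901). Of 6 other superfamily genes 0 were called by limma in the 5 tests. The list medians between Gel and Sham were 0.04, -0.23, 0.19, -0.17 and -0.11 in the order given.

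Between the segments 3 of 58 members were called, all lower in Segment 2, where 1.93% of all targets were called (1.59% lower and 0.34% higher) and 5.49% of those above background. Targets above background ran lower in Segment 2 as a whole, with a median log2 change of -0.20, against -0.01 over all targets and -0.07 over the members. Tgfbr1 was lower in Segment 2 in 6 of 6 specimens, with specimen differences from -0.81 to -0.23 (log2 change -0.51, SE 0.10, limma adjusted p = 6.90e-04). In Sham it went from 195 to 111 and from 174 to 113. Inhbb was lower in 6 of 6 specimens (-0.73, SE 0.15, adjusted p = 0.00118), with Segment 1 means of 25.9 to 50.04 and Segment 2 means of 16.6 to 23.0. Tgfb1 was lower in 6 of 6 specimens (-0.36, SE 0.09, adjusted p = 0.0248), with a Segment 1 mean of 137 ± 27.7 and a Segment 2 mean of 107 ± 23.6 (SD, n = 6). Tgfb2, Tgfbr2 and Bmpr2, which were not called, were lower in 6 of 6 specimens too. Tgfb2 passed the background limit in 0 Segment 2 areas, and the Tgfbr2 difference in Gel specimen 1 was only -0.01. How many of all targets were lower in 6 of 6 specimens was not counted. The segments differed in depth, since the share of targets with a single count had a median of 2.19% in Segment 1 and 28.5% in Segment 2. With counts thinned to the shallowest area 0 members were called, and 0 without limma's trend and robust steps. The Tgfb1 call was also lost without Gel specimen 1 (adjusted p = 0.0875), Gel specimen 2 (adjusted p = 0.0863), CuNZ@Gel specimen 1 (adjusted p = 0.0606) or CuNZ@Gel specimen 2 (adjusted p = 0.0596), and without the 2 areas under 120000 counts (adjusted p = 0.0523). Of the 16 latency and activation genes 6 were called lower in Segment 2, the 4 with the smallest p being Mmp14 (-0.40), Nrros (-0.59), Itgb1 (-0.41) and Furin (-0.41). The 16 TGF-beta response genes held 2 such calls, Fn1 and Col1a1, and the 11 BMP response genes 1, Id1. Of 20 alternatives, 4 lost the Fn1 call, 9 that of Col1a1 and 3 that of Id1. Macrophage markers summed to a median of 984 in Segment 1 and 784 in Segment 2. Medians were also lower in Segment 2 for fibroblast (12147 and 10578), smooth muscle and pericyte (719 and 527), endothelial (115 and 80.2) and adipocyte markers (171 and 89.3). They were higher for neutrophil (34.0 and 44.6) and mast cell markers (17.5 and 23.5), most of which were not above background. The part of these cell types was not tested.

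No member was called for a treatment difference that itself differed between segments, where 0.0507% of all targets were. Of the 16 TGF-beta response genes Acta2 alone was called in this test. At an unadjusted p under 0.05 there were 5 members in limma, or 8.62% against 5.65% of all targets. At an adjusted p under 0.05 limma and DESeq2 called 0 and edgeR 1. The nearest was Inhba (limma adjusted p = 0.0737). In Sham it went from 166 in Segment 1 to 196 in Segment 2 and from 51.0 to 93.1, and in Gel from 34.4 to 22.1 and from 44.4 to 29.7. In CuNZ@Gel it went from 108 to 163 and from 170 to 155. Both Sham specimens were thus higher in Segment 2 and both Gel specimens lower. edgeR called it (adjusted p = 0.0117), as did the fits without CuNZ@Gel specimen 1 or 2 (adjusted p = 0.0232 and 0.00638), while without any 1 of the other 4 specimens the adjusted p was 0.640 or above.

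**Figure D5:**
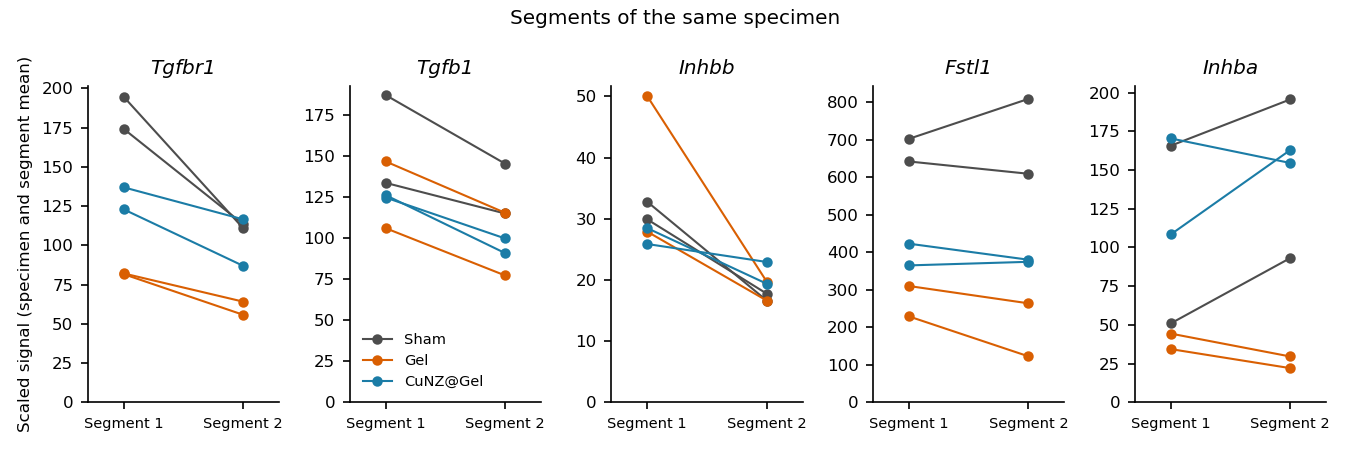
Scaled signal of 5 members in Segment 1 and Segment 2 of the same specimen, each line 1 specimen, coloured by treatment. Tgfbr1, Tgfb1 and Inhbb go down in all 6 specimens; Inhba goes up in both Sham specimens and down in both Gel specimens.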

How the data were processed

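The deposited files, 1 per area, hold signal values whose nearly equal 75th percentiles show a scaling by the authors. How counts, probe filters and scaling were done is not given in the sources used here. Per the labels, libraries were made with the GeoMx kit from fixed sections. In every area at least 99.98% of values were whole multiples (within 0.01) of the lowest value, so counts were recovered for the count tests. Values were tested as log2(value + 1), so fold changes of low targets are understated. A target was tested if it exceeded the negative probe in 4 or more areas, as 19728 did. Treatments were compared over 6 specimen means of 4 areas each, by limma 3.58.1 under R 4.3.3 with its trend and robust options. Segments were compared over 12 means of 2 areas each, with the specimen as a block, and the treatment by segment test was an F test. Specimen values are means of log2(value + 1) turned back. Benjamini-Hochberg adjustment ran over all tested targets, with a threshold of 0.05.

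The members and lists were chosen with earlier results of these data known. Called members and 10 preset ones (Tgfb1, Tgfb2, Tgfb3, Tgfbr1, Tgfbr2, Inhba, Smad2, Smad3, Smad4, Smad7) are described in full, other members above background in short, the rest by counts, and up to 4 called genes of each list are named; Lox is named beyond that rule, as a further called gene of its list, after its values were seen. The fits were tested on simulated areas. Alternatives covered scaling, pseudocount, filter, averaging, test (edgeR 4.0.16 and DESeq2 1.42.0 on recovered counts), unit, depth, segments and each specimen left out; leaving out the 2 areas under 120000 counts was chosen after seeing the data. Same-numbered specimens of different treatments did not deviate together (correlations of 0.0037, -0.032 and -0.025), so the numbers were not taken to pair them. Some genes that enter the counts are not reported here by name or value.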

Additional observations from a re-analysis of the deposited data

Results flagged for a closer look

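Of 81 groups of 8 areas (27 members by 3 treatments), 5 held 1 area far from the others of its treatment; chance alone gives about 1 in 20. Ltbp4 in Sham had 1 area at 20.4, with the next at 34.3. Bmpr2 in CuNZ@Gel had 1 area at 76.7, with the next at 106.3. Bmpr1a in CuNZ@Gel had 1 area at 5.66, with the next at 11.4. Tgfb3, near background throughout, had 1 Sham area at 12.3 (next 6.31) and 1 Gel area at 2.04 (next 6.81). Areas of 1 specimen share their source, and all 8 areas were used in the values above.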

How the results depend on the processing

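No called member changed direction under any alternative run. Fstl1 and Tgfbr1 in Gel against Sham kept their calls under all 23, and Bmp6 in Gel against Sham and Fst in CuNZ@Gel against Gel lost theirs with Segment 2 areas only (adjusted p = 0.0944 and 0.0573). The cause of the other changes in the counts below was not tested. Of 8 members called in Gel against Sham there were 4 without limma's trend and robust steps, 3 with DESeq2, 3 with thinned counts and 4 in Segment 2 only. Of 4 in CuNZ@Gel against Sham there were 2 with quantile normalization, 2 with median scaling, 0 without trend and robust, 0 with DESeq2, 1 with thinned counts, 2 in Segment 1 only and 1 in Segment 2 only. Of 6 in CuNZ@Gel against Gel there were 3 with median scaling, 2 without trend and robust, 3 with edgeR, 1 with DESeq2, 3 with thinned counts, and 2 in Segment 1 only and 2 in Segment 2 only. Of 3 between segments, median scaling gave 11, no trend and robust steps 0, areas as the unit 1 and thinned counts 0. With no specimen block, so that the 2 segments of a specimen were not paired, there were 0. The treatment by segment test gave 1 member with linear means (Inhba), 1 with edgeR (Inhba) and 1 with thinned counts (Fstl1). Leaving out 1 specimen gave 4 to 11 members in Gel against Sham, 0 to 5 in CuNZ@Gel against Sham, 2 to 7 in CuNZ@Gel against Gel, 2 to 3 between segments and 0 to 1 in the treatment by segment test; a lone specimen is then assumed to vary like the others. With the specimen number as a replicate block the 3 treatment comparisons gave 8, 3 and 6. Over all targets the calls ranged from 152 to 752 (478 as reported), 44 to 461 (259), 55 to 293 (186), 0 to 1326 (381) and 0 to 36 (10). The share called higher moved from 25.5% to 48.9% with quantile normalization and 13.8% with median scaling in Gel against Sham, from 24.7% to 49.7% with quantile normalization in CuNZ@Gel against Sham, from 66.1% to 76.1% with median scaling in CuNZ@Gel against Gel, and from 17.6% to 4.5% with median scaling between segments. Thinning shifted the median log2 change of all targets from 0.06 to 0.23 in Gel against Sham, from 0.04 to 0.21 in CuNZ@Gel against Sham and from -0.01 to 0.19 between segments, and median scaling shifted it to -0.07 in the first and to -0.13 between segments. The 27 members that passed the background limit in no area were tested, but on values that lie among background ones.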
